A study of Homo sapiens with 6 samples.

Results

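Integrins are the main receptors by which cells hold on to the matrix around them, and laminins are the large matrix proteins that give basement membranes their sheet. The 38 genes described here were taken by gene symbol, as the 18 alpha integrins, the 8 beta integrins and the 12 laminin chains among the 23228 genes of the count tables. The choice of this group was made with earlier results of these data known. The RNA came from MDA-MB-231, a human cell line from a triple negative breast cancer (TNBC), which is a breast cancer without estrogen, progesterone and HER2 receptors. The 3 control replicates stably expressed a shRNA with no target, and the 3 PELP1-KD replicates stably expressed a single shRNA against PELP1, a coregulator of nuclear receptors. Both kinds of cell were selected with puromycin and grown in RPMI medium with 10% serum. The labels do not say that the replicates of a group were selected or cultured separately, so the p-values measure the spread between these replicates, which may be technical.

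An integrin is a pair of a single alpha and a single beta chain, and the pair decides the ligand. The pairs of beta 1 with alpha 3 or alpha 6, and of beta 4 with alpha 6, bind laminin. Beta 1 with alpha 1 or alpha 2 binds collagen, whereas beta 1 with alpha 5 and several pairs of alpha V bind proteins with the RGD motif, such as fibronectin and vitronectin. A laminin is a trimer of an alpha, a beta and a gamma chain, and the trimers are numbered after their chains in that order. Epithelial cells anchor to laminin-332 through hemidesmosomes, in which alpha 6 beta 4 is the receptor.

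Gene counts summed to between 17304864 and 23132102 in a replicate, and 3 counts correspond to between 0.128 and 0.177 CPM (the count over the library total, on the usual scale of CPM and after TMM scaling in edgeR). PELP1 had 57.2, 56.1 and 60.2 CPM in control replicates 1, 2 and 3 and 28.6, 29.9 and 30.3 CPM in PELP1-KD replicates 1, 2 and 3. Its log2 fold change (log2FC) was -0.97 (standard error, SE, 0.055, adjusted p = 1.48e-11 in the quasi-likelihood test of edgeR, adjusted after Benjamini and Hochberg over 12796 tested genes). The 4 markers of a mesenchymal-like breast cancer line, namely VIM, CD44, ZEB1 and AXL, summed to between 4880 and 4986 CPM in the controls and between 4100 and 4157 CPM in PELP1-KD cells. ESR1 and PGR, the genes of the estrogen and progesterone receptors, had at most 2 counts in every replicate, while ERBB2, the gene of HER2, had between 109 and 128 CPM. Among the markers of other cell types, the summed level was between 0.451 and 0.71 CPM in controls and between 0.718 and 0.892 CPM in PELP1-KD cells for leukocytes, and 0.113 to 0.22 against 0.103 to 0.516 CPM for platelets. For fibroblasts it was 5.24 to 7.09 CPM against 17.2 to 20.1 CPM, nearly all of it COL1A1. For endothelial cells it was 0.296 to 0.676 CPM against 0.923 to 1.17 CPM, where only VWF passed the test. VWF had 1, 6 and 0 counts in the controls and 12, 20 and 16 in PELP1-KD cells. The other endothelial markers, PECAM1 and CDH5, had at most 7 and 6 counts. Their groups overlapped, with means slightly lower in PELP1-KD cells. Of the other fibroblast markers, LUM had 0, 0 and 1 counts in the controls and 5, 2 and 6 in PELP1-KD cells, COL1A2 had 0, 0 and 1 against 2, 4 and 3, and DCN was at 0 throughout. Of the 6 leukocyte markers 3 were at 0 in every replicate, PTPRC and SPI1 among them, and the highest was CD14 with 8 to 16 counts. The part of such cells in the results below was not tested.

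Of the 38 genes, 22 had enough counts to be tested, and 18 of these passed an adjusted p of 0.05, with 11 lower and 7 higher in PELP1-KD cells. This is 81.8% of the tested members, against 46.9% of all tested genes, of which 24.2% were lower and 22.7% higher. With a fold change above 2 as well, LAMA5 and LAMA4 were lower and ITGB3 was higher, where 3.24% of all tested genes passed both thresholds (1.34% lower and 1.9% higher). The median log2FC was -0.18 over the 10 tested laminin chains and 0.09 over the 12 tested integrins, beside 0.0014 over all tested genes. In bulk RNA, fewer cells of a kind and less RNA per cell cannot be told apart. All 3 tested laminin-binding chains were lower, and of the 4 tested RGD-binding chains 3 were higher.

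**Figure D1:**
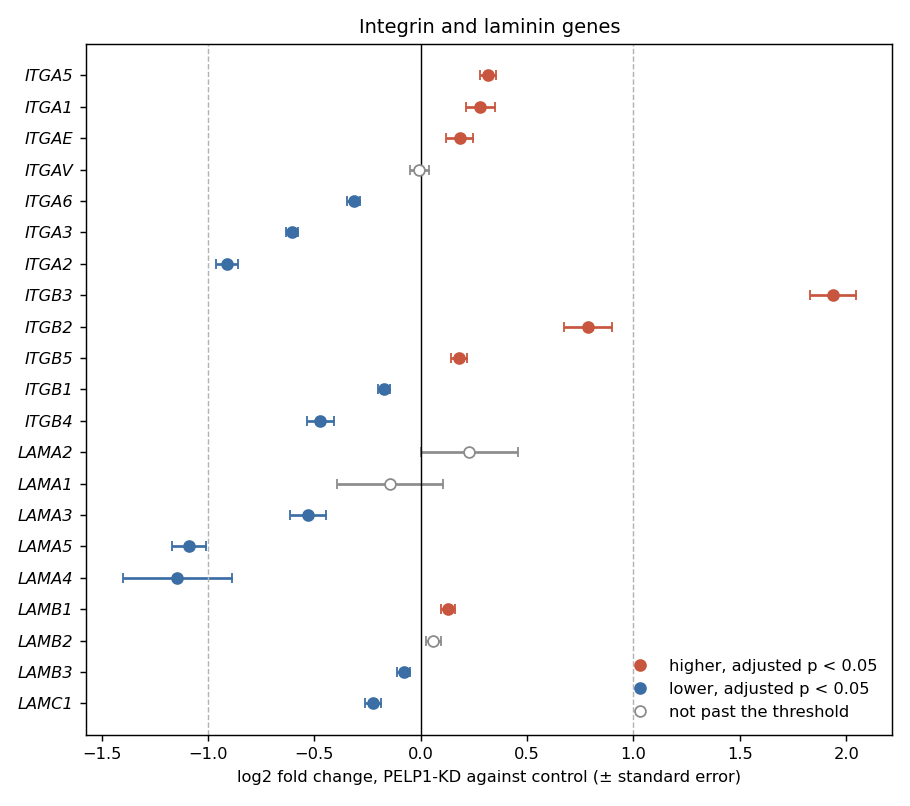
Log2 fold change of the tested integrin and laminin genes described here between PELP1-KD and control cells on the horizontal axis, with bars of 1 standard error (n = 3 in each group). Dashed lines mark a log2FC of -1 and 1, and open grey points did not pass an adjusted p of 0.05; ITGB3 stands farthest to the right at 1.94, and LAMA5 and LAMA4 lie to the left of -1.

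The laminin-binding alpha chains were the most abundant alpha integrins of the cell line. Levels of different genes are compared as RPKM, which is CPM divided by exon length in kilobases. ITGA6 had 88.0 RPKM ± 2.13 (SD, n = 3) and ITGA3 88.0 RPKM ± 2.48 (SD, n = 3) in control cells, a difference smaller than the spread between replicates. After them came ITGAV at 28.4 RPKM, ITGA5 at 17.1, ITGA2 at 9.16, ITGAE at 5.23 and ITGA1 at 1.61. In PELP1-KD cells ITGA6 was above ITGA3, at 70.8 RPKM ± 2.42 (SD, n = 3) against 57.9 RPKM ± 1.04 (SD, n = 3), and the order of the genes from ITGAV to ITGA5 was unchanged. ITGAE, at 5.96 RPKM, was there above ITGA2, at 4.86 RPKM. The order of ITGA3 and ITGA6 depends on the gene length used. ITGA3 has 9802 merged exon bases and ITGA6 6533, while their longest transcripts have 5479 and 5618 bases. In CPM, which uses no length, ITGA3 was the higher in both groups. It had a mean of 862.5 against 574.9 CPM in the controls and 567.4 against 462.2 CPM in PELP1-KD cells.

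ITGA3, on chromosome 17 of GRCh38 (50055968 to 50090481, plus strand), encodes the alpha 3 chain, which binds laminin-332 and laminin-511. Its level was 836, 869 and 883 CPM in control replicates 1, 2 and 3 and 556, 573 and 573 CPM in PELP1-KD replicates 1, 2 and 3. All PELP1-KD replicates were below all control replicates, and the log2FC was -0.60 (SE 0.028, adjusted p = 6.83e-13 by edgeR). ITGA6 encodes the alpha 6 chain, shared by the beta 1 and beta 4 pairs. It had 591, 568 and 566 CPM in the controls and 472, 444 and 471 CPM in PELP1-KD cells, a log2FC of -0.31 (SE 0.031, adjusted p = 5.63e-08 by edgeR). The groups did not overlap, as in 55% of all tested genes. ITGB4, whose long tail joins alpha 6 beta 4 to the hemidesmosome, had 30.0, 31.7 and 30.8 CPM in the controls and 22.3, 22.7 and 21.7 CPM in PELP1-KD cells. Its log2FC was -0.47 (SE 0.063, adjusted p = 3.17e-06 by edgeR), with every PELP1-KD replicate below every control. The fourth laminin-binding chain, ITGA7, which is known from muscle, had between 6 and 20 counts and was not tested.

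The collagen-binding chains moved in opposite directions. ITGA2, the alpha 2 chain of the collagen receptor of epithelial cells and platelets, had 76.7, 67.9 and 72.7 CPM in the controls and 38.1, 38.4 and 38.8 CPM in PELP1-KD cells. It had the lowest log2FC of the tested integrins, -0.91 (SE 0.054, adjusted p = 2.57e-11 by edgeR), which is 1.88-fold lower. ITGA1, its neighbour on chromosome 5 of GRCh38 (52787896 to 52959210 against 52989326 to 53094779, both on the plus strand), rose. It had 31.9, 31.5 and 26.2 CPM in the controls and 35.5, 35.3 and 38.0 CPM in PELP1-KD cells, a log2FC of 0.28 (SE 0.07, adjusted p = 0.00247 by edgeR). Control replicate 3 was the lowest of the 6, and the groups did not overlap. In GENCODE, 2.56% of the exon bases of ITGA1 are shared with PELO on the same strand. ITGA10 and ITGA11, the other collagen-binding chains, had at most 8 and 1 counts.

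ITGB3 encodes the beta 3 chain, which with alpha V forms the vitronectin receptor. It showed the largest change of the 22 tested genes. Its level was 3.49, 4.05 and 4.39 CPM in control replicates 1, 2 and 3, from 59, 92 and 78 counts, and 14.7, 15.9 and 15.3 CPM in PELP1-KD replicates 1, 2 and 3, from 286, 340 and 359 counts. The lowest PELP1-KD replicate was above the highest control more than 3-fold, and the log2FC was 1.94 (SE 0.11, adjusted p = 8.61e-12 by edgeR), a 3.83-fold rise. ITGB3 lies on chromosome 17 of GRCh38 from 47253846 to 47311816 on the plus strand, and the overlapping GENCODE gene AC068234.1 shares 51.6% of its exon bases on that strand. ITGA2B, the platelet partner of beta 3, had at most 8 counts.

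Among the other RGD-binding beta chains only ITGB5 was tested. ITGB5, a second vitronectin-binding chain, had 170.4, 177 and 179 CPM in the controls and 195, 206 and 195 CPM in PELP1-KD cells. These groups were apart by a log2FC of 0.18 (SE 0.036, adjusted p = 4.12e-04 by edgeR). ITGB8 had between 5 and 18 counts and ITGB6 at most 2, so neither was tested. ITGA8, an RGD-binding alpha chain, had no counts. ITGAV itself, with 253, 228 and 219 CPM in the controls and 239.8, 222 and 235 CPM in PELP1-KD cells, overlapped between the groups. Its log2FC was -0.0069 with a 95% confidence interval from -0.10 to 0.09 (adjusted p = 0.911 by edgeR), and its sign turned with library totals as the scaling.

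ITGA5, the alpha chain of the fibronectin receptor, had 132, 131 and 126 CPM in the controls and 166, 163 and 155 CPM in PELP1-KD cells. The groups did not overlap, and the log2FC was 0.32 (SE 0.039, adjusted p = 1.29e-06 by edgeR). ITGB1, the beta chain shared by 12 of the 24 known pairs, was the most abundant integrin gene, with 160.1 RPKM ± 2.98 (SD, n = 3) in the controls and 142 RPKM ± 4.7 (SD, n = 3) in PELP1-KD cells. It had 983, 954 and 951 CPM in the controls and 867, 820.4 and 871 CPM in PELP1-KD cells, and all 3 PELP1-KD replicates were lower. Its log2FC was -0.17 (SE 0.028, adjusted p = 3.91e-05 by edgeR).

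Most integrins of blood cells were close to absent. ITGAL, ITGAM, ITGAD, ITGAX and ITGB7 had at most 4 counts in any replicate, and so had ITGA9, while ITGA4 had none. ITGB2, the beta chain of the leukocyte integrins, was an exception, with 6.15, 5.46 and 5.91 CPM in the controls and 8.82, 10.9 and 10.3 CPM in PELP1-KD cells. The groups were apart, with a log2FC of 0.79 (SE 0.11, adjusted p = 8.06e-06 by edgeR). None of its 4 alpha partners had more than 4 counts, and 0 of the 6 leukocyte markers passed the test. PTPRC and SPI1 were at 0, while CD79A had at most 5 counts and CD14 between 8 and 16, with a log2FC of 0.31 (SE 0.35, adjusted p = 0.491 by edgeR) and overlapping groups. ITGAE, the alpha chain that binds E-cadherin, had 31.3, 37.7 and 35.6 CPM in the controls and 39.0, 38.9 and 41.1 CPM in PELP1-KD cells. Control replicate 1 was the lowest, and the log2FC of 0.18 (SE 0.065, adjusted p = 0.0257 by edgeR) no longer passed without it, at 0.11 (adjusted p = 0.131), or without PELP1-KD replicate 3, at 0.16 (adjusted p = 0.111). HASPIN on the opposite strand shares 6.41% of the exon bases of ITGAE, and ITGB2-AS1 shares 4.46% of those of ITGB2. Whether the authors counted by strand is not given in the sources used here, so reads of these partners cannot be told apart.

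**Figure D2:**
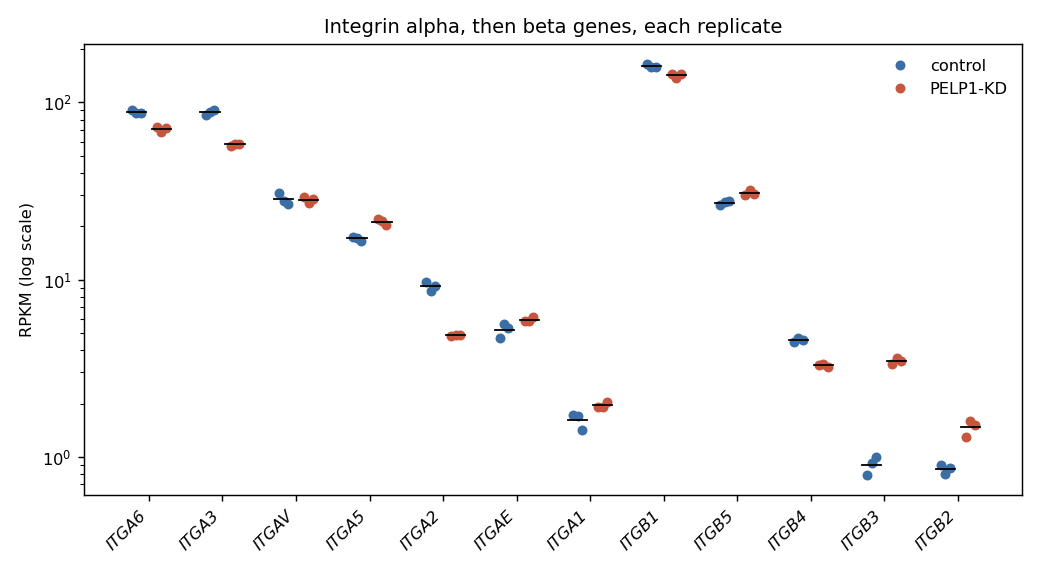
RPKM of each tested integrin gene on a log scale, alpha chains and then beta chains, ordered by their control mean. Each point is a replicate, blue for control and red for PELP1-KD, and black bars are means; the 3 red points of ITGB3, from 3.34 to 3.63 RPKM, lie far above its blue points, while those of ITGA2, ITGA3 and ITGB4 lie below.

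The 24 known alpha-beta pairs were used to ask whether partners changed together. In 9 pairs both genes were tested, and for each the ratio of alpha to beta RPKM was taken within a replicate, which does not depend on library scaling. ITGAV exceeded ITGB3 by 31.5-fold in control cells and by 8.13-fold in PELP1-KD cells. The log2 ratio was 5.28, 4.91 and 4.74 in the controls and 3.13, 2.90 and 3.05 in PELP1-KD cells, a difference of -1.95. These ratios use the full exon length of ITGB3, of which AC068234.1 shares 51.6%. Whether this overlap changed the counted level of ITGB3 was not tested. For ITGA2 and ITGB1 the difference was -0.74, for ITGA3 and ITGB1 -0.43, and for ITGA6 and ITGB1 -0.14, so that these chains fell by more than their common partner. ITGA5 against ITGB1 differed by 0.49, ITGA1 against ITGB1 by 0.46 and ITGAV against ITGB1 by 0.17. The groups did not overlap in these 7 ratios (exact permutation over the 6 replicates, two-sided p = 0.1 for each, which is the lowest it can give, and 0.129 after adjustment over the 9 pairs). For single genes, the groups did not overlap in 55% of all tested genes, and ratios of other genes were not computed. All of these ratios but that of ITGAV to ITGB3 share ITGB1, whose own groups did not overlap, so they are not separate results.

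In the 2 other pairs the groups overlapped. The log2 ratio of ITGA6 to ITGB4 was 4.27 ± 0.069 (SD, n = 3) in the controls and 4.43 ± 0.079 (SD, n = 3) in PELP1-KD cells. That of ITGAV to ITGB5 was 0.06 ± 0.14 (SD, n = 3) and -0.12 ± 0.11 (SD, n = 3). The two-sided exact permutation test gave p = 0.2 for both. In the remaining 15 pairs a chain or both had too few counts to be tested.

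**Figure D3:**
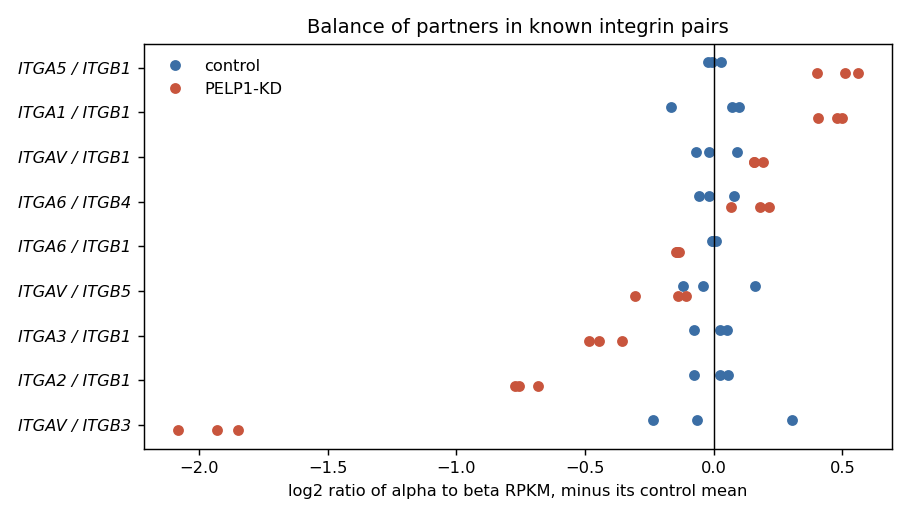
Log2 ratio of alpha to beta RPKM in each replicate of 9 integrin pairs, less the mean of the control replicates of that pair. Blue points are control and red points PELP1-KD replicates; the pair of ITGAV and ITGB3 is farthest to the left, and the points overlap for ITGA6 with ITGB4 and ITGAV with ITGB5.

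By their share of all alpha integrin RPKM, ITGA3 went from 37.0% ± 1.37 (SD, n = 3) to 30.3% ± 0.879 (SD, n = 3), and ITGA5 from 7.19% ± 0.137 to 11.1% ± 0.475. With the merged exon length, ITGA6 kept a share of 37.0% in both groups. Summed over the 18 genes, alpha integrin RPKM fell by 19.6%, from 238 ± 2.19 (SD, n = 3) to 191 ± 2.96 (SD, n = 3). The beta integrins summed to 194 RPKM ± 2.13 (SD, n = 3) and 181 RPKM ± 3.45 (SD, n = 3), of which ITGB1 held 82.7% and 78.4% and ITGB3 0.468% and 1.92%. In each of these sums and shares but that of ITGA6 the groups did not overlap (exact permutation over the 6 replicates, two-sided p = 0.1, which is the lowest it can give).

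For 3 of the laminin genes described next, sequence before the start is shown. LAMA3 and LAMB3 were the only 2 members with a match to the AP-1 motif given below, and were picked by that match. LAMA5 encodes the most abundant laminin alpha chain here. The 250 bases before annotated starts were taken from RefSeq on GRCh38.p14, where 26 of the 38 genes had 33 windows between them. The AP-1 motif TGANTCA, searched on both strands, was found in 2 of these 33 windows, 1 each of LAMA3 and LAMB3, and in 6.57% of all 35116 RefSeq windows of this length. The 3 matches are shown with 10 bases on each side and the motif in capitals. They begin 125 and 69 bases before a start of LAMA3 and 67 bases before a start of LAMB3. Of the 250 bases of these windows, 180 lie in annotated GENCODE exons for LAMA3 and 20 for LAMB3, so that the LAMA3 window is mostly exon of some transcript.
LAMA3, chr18:23872885-23872911, plus strand: tggcacaggcTGACTCAtgtgtgaagt
LAMA3, chr18:23872941-23872967, plus strand: cttcctcaccTGAGTCAggcaggcccg
LAMB3, chr1:209651425-209651451, minus strand: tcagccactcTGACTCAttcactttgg
The GC box motif GGGCGG, on both strands, was found in 17 of the 33 windows and in 42.6% of all windows. The E-box CACGTG, which reads the same on both strands, was found in 1 of the 33 windows and in 6.34% of all windows. The window before the start of LAMA5 is shown with its 5 matches in capitals, on either strand, and has no base in an annotated exon.
LAMA5, chr20:62367313-62367562, minus strand: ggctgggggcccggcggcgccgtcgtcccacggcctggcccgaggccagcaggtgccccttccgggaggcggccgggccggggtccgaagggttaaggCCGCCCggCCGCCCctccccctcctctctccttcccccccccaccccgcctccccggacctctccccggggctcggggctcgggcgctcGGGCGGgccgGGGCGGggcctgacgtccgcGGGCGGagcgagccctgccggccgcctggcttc
A match is a run of letters, and binding of a factor was not measured.

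The laminin alpha chains were scarce, and 3 of the 5 fell. LAMA5, the alpha 5 chain of laminin-511 and laminin-521, had 39.2, 50.9 and 47.7 CPM in control replicates 1, 2 and 3 and 20.0, 22.2 and 22.7 CPM in PELP1-KD replicates 1, 2 and 3. Control replicate 1 was the lowest control and still above every PELP1-KD replicate, and the log2FC was -1.09 (SE 0.081, adjusted p = 8.52e-10 by edgeR), which is 2.13-fold lower. In GENCODE, ADRM1 on the opposite strand shares 1.71% of the exon bases of LAMA5. LAMA3, the alpha chain of laminin-332, had 16.6, 16.6 and 16.8 CPM in the controls and 10.5, 12.5 and 11.6 CPM in PELP1-KD cells. It fell by 0.53 on the log2 scale (SE 0.085, adjusted p = 3.09e-05 by edgeR), without overlap.

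LAMA4, known from the basement membranes of blood vessels, had the lowest log2FC of the laminins, -1.14 (SE 0.26, adjusted p = 9.8e-04 by edgeR). This rested on few reads, 27, 34 and 28 counts in the controls and 11, 14 and 20 counts in PELP1-KD cells, or 0.135 RPKM ± 0.0046 (SD, n = 3) against 0.0596 RPKM ± 0.0126 (SD, n = 3). LAMA1 and LAMA2 had between 19 and 35 counts, and their groups overlapped. Their log2FC was -0.14 (95% confidence interval -0.66 to 0.37) and 0.23 (-0.24 to 0.70), so that changes of this size were not detectable at this depth. An antisense gene, AP002409.1, shares 10.3% of the exon bases of LAMA1. LAMA5 held 68.4% ± 3.08 (SD, n = 3) of laminin alpha RPKM in the controls and 58.8% ± 0.777 (SD, n = 3) in PELP1-KD cells. The sum over the 5 alpha chains fell by 45.1%, from 4.69 RPKM ± 0.418 (SD, n = 3) to 2.57 RPKM ± 0.149 (SD, n = 3).

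Beta chains were the most abundant and moved least. LAMB3, the beta chain of laminin-332, stood at 70.7 RPKM ± 0.111 (SD, n = 3) in the controls, above LAMB2 at 30.4 RPKM and LAMB1 at 25.8 RPKM. It had 331.9, 331.8 and 330.9 CPM in the controls and 311.6, 319.6 and 310.1 CPM in PELP1-KD cells, a log2FC of -0.08 (SE 0.03, adjusted p = 0.0339 by edgeR). This small fall did not pass with DESeq2 (adjusted p = 0.0582), with library totals as the scaling (adjusted p = 0.415), or when any of 4 replicates was left out (adjusted p from 0.0678 to 0.129 by edgeR). LAMB1 had 215, 206 and 208 CPM in the controls and 229.6, 225 and 233 CPM in PELP1-KD cells, a rise of 0.13 on the log2 scale (SE 0.034, adjusted p = 0.00346 by edgeR). LAMB2, with 201, 212 and 213 against 211, 224 and 217 CPM, overlapped between groups, with a log2FC of 0.06 (95% confidence interval -0.02 to 0.13) that passed with library totals alone (0.11, adjusted p = 0.018). The summed RPKM of the beta chains was 127 in both groups, where the two-sided exact permutation test gave p = 0.9. LAMB4 had at most 3 counts.

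LAMC1, the gamma chain of most laminins, had 286, 264 and 259.5 CPM in the controls and 232, 229 and 232 CPM in PELP1-KD cells. All 3 PELP1-KD replicates were below all controls, and the gene fell by 0.22 on the log2 scale (SE 0.036, adjusted p = 3.72e-05 by edgeR). LAMC3, a gamma chain too, had at most 3 counts.

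**Figure D4:**
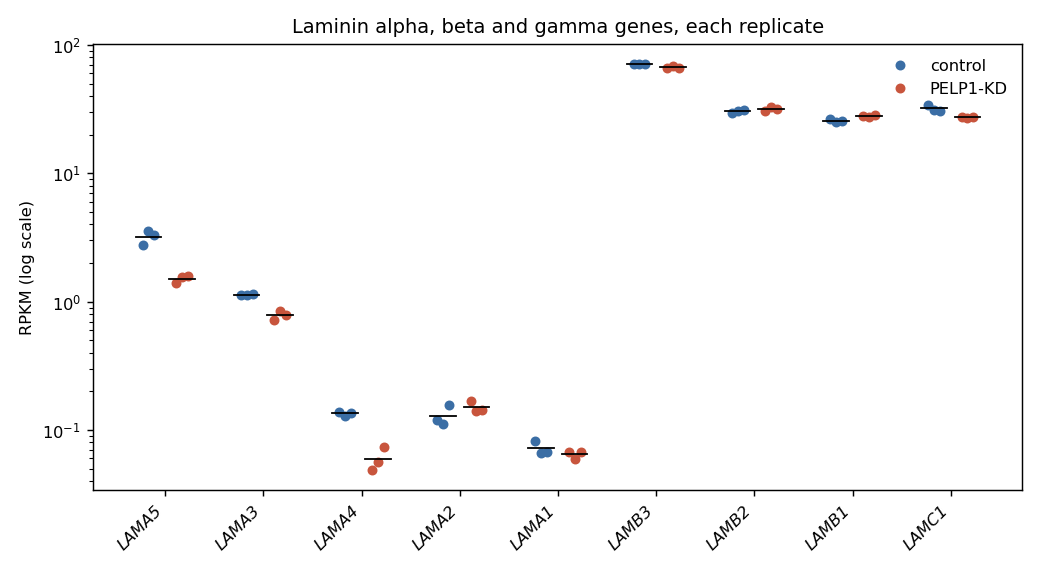
RPKM of the tested laminin genes described here on a log scale, alpha, beta and then gamma chains. Each point is a replicate, blue for control and red for PELP1-KD, and black bars are means; the red points of LAMA5, LAMA3 and LAMA4 lie below the blue ones, while LAMB3, LAMB2 and LAMB1, all above 25 RPKM, are close together.

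Chains of the same trimer differed in both level and change. LAMB3 had 70.7 RPKM and LAMA3 1.14 RPKM in the controls, and 66.9 and 0.784 RPKM in PELP1-KD cells. For laminin-511, LAMA5 had 3.21 RPKM in the controls beside 25.8 for LAMB1 and 32.1 for LAMC1, and 1.51 RPKM in PELP1-KD cells beside 28.1 and 27.5. Of 15 known trimers, 12 had 3 tested chains, and in all 12 the alpha chain was the lowest of the 3 in both groups. The 12 trimers share the same 5 alpha genes and so are not separate results. These levels are of mRNA, and no protein was measured here.

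Genes around the integrins and laminins were counted in lists written from general knowledge. Among 36 focal adhesion adaptors and kinases, which link integrin tails to actin, 34 were tested, with 10 lower, 10 higher and a median log2FC of 0.01. These 20 are 58.8% of those tested, against 46.9% of all tested genes (24.2% lower and 22.7% higher). Without PELP1-KD replicate 2, the number higher was 6. The largest falls were those of TNS4, a tensin that binds beta tails (log2FC -1.01), LPXN, a relative of paxillin (-0.92), and CRK, an adaptor (-0.63). The largest rises were those of FERMT3, the kindlin of blood cells (0.67), NEDD9, a docking protein of focal adhesion kinase (0.54), and PTK2B, a relative of that kinase (0.36). TLN1 and ILK, which connect integrins to the cytoskeleton, did not pass, at 0.0012 and 0.07.

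Of 31 integrin ligands other than laminins, 21 were tested, 13 were higher and 3 lower, where 22.7% and 24.2% of all tested genes were, with a median log2FC of 0.38. The largest rises were those of COL1A1, a chain of fibrillar collagen, with 5.84 CPM ± 1.08 (SD, n = 3) in control cells against 18.1 ± 1.53 (SD, n = 3) after knockdown, and of TGFBI and COL4A1. COL1A1 is also a fibroblast marker, and of the other 3 fibroblast markers LUM and COL1A2 had at most 6 and 4 counts, higher in every PELP1-KD replicate than in any control, while DCN had none. Their part in this rise was not tested. FN1, which encodes fibronectin, had a log2FC of 0.38 (SE 0.034, adjusted p = 1.08e-08 by edgeR). VTN, which encodes vitronectin, had at most 7 counts and SPP1 had none. The 3 that fell were NOV at -0.89, COL6A1 at -0.51 and L1CAM at -0.31.

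Among 21 partners of laminin in the basement membrane, 14 were tested, with 6 higher and 4 lower, beside 22.7% and 24.2% of all tested genes, and a median log2FC of -0.0081. COL4A1, a chain of the type IV collagen network, had 195.4 CPM ± 6.82 (SD, n = 3) in control cells, against 413 ± 6.63 (SD, n = 3) after knockdown, and rose by 1.08 on the log2 scale. SPARC rose by 1.57 and COL7A1, the collagen of anchoring fibrils, by 0.89. The falls were led by COL4A4, at -1.07 with between 8 and 32 counts, FBLN1 at -0.93 and COL18A1 at -0.64. NID1 and NID2, the nidogens that join laminin to type IV collagen, had at most 2 counts.

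Other laminin receptors and hemidesmosome anchors had 10 of 15 tested genes lower, against 24.2% of all tested genes, and 2 higher, against 22.7%, with a median log2FC of -0.13. The number lower was 8 with DESeq2 or library totals, and 8 or 10 when a replicate was left out. DST, which encodes a linker of hemidesmosomes to keratin in some of its isoforms, fell by 0.53 on the log2 scale. DAG1, which encodes the laminin receptor dystroglycan, fell by 0.42. SDC4, a syndecan of focal adhesions, rose by 0.34. Of 13 membrane proteins associated with integrins, 12 were tested, of which 8 were lower and CD82 was higher, against 24.2% and 22.7% of all tested genes, with a median of -0.12. MDGA1 had the lowest log2FC, -0.69, followed by CAV1 at -0.30 and CD47 at -0.30. CD151, the tetraspanin that accompanies laminin-binding integrins, had a log2FC of -0.13 (SE 0.033, adjusted p = 0.00243 by edgeR). With library totals as the scaling, 5 of these 13 were lower. CD151 is in both of the last lists, and COL4A1 and COL4A2 in both lists before them.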

How the data were processed

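MDA-MB-231 cells with control shRNA (n = 3) and PELP1 shRNA (n = 3) were profiled by RNA-seq with single reads of 50 bases from stranded poly(A) libraries. The authors deposited whole-number read counts per gene symbol for each replicate, without normalization. The submitters' processing notes name bcl2fastq, TopHat2, SAMtools, HTSeq and hg19. Versions, the annotation and the use of strand are not given in the sources used here. The rows that name no gene were left out: reads with several alignments (between 32.5% and 32.9% of the sum of all rows of a replicate), in no gene (7.63% to 8.2%) and in more than a single gene (0.657% to 0.688%). A read with several alignments may be counted more than once in that sum. The floor of 3 counts covers counting error only.

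Counts were tested in R 4.3.3 with edgeR 4.0.16 after filterByExpr with a minimum of 10 counts and TMM scaling, in a quasi-likelihood fit of the 2 groups over 12796 genes with Benjamini-Hochberg adjustment. The study's own test was DESeq2, used here as an alternative. Standard errors were derived from the log2FC and the F statistic (log2FC over root F), and the 95% interval uses the degrees of freedom of that fit, so it covers the spread between replicates as well. RPKM used the merged exon length in GENCODE release 29, and positions are those of GRCh38, not of the authors' hg19. Ratios, shares and sums were compared by two-sided exact permutation over the 6 replicates. The 38 members follow from a symbol pattern, and some genes that stand in the counts are not reported here by name. The gene lists, pairs and trimers were written from general knowledge, and the 3 largest significant changes of each list in each direction are otherwise named, with some others chosen after their values were seen: TLN1, ILK, FN1, VTN, SPP1, NID1, NID2 and CD151. Members and lists were chosen with earlier results of these data known. Replicates of a group differed by more than sampling noise (chi-square per degree of freedom 1.46 to 4.06). The scripts were tested on simulated data. Alternatives were RLE, library totals, DESeq2 1.42.0, voom in limma 3.58.1, other filters, a block for the replicate number, each replicate left out in turn, glmTreat with a log2FC threshold of 1, and transcript length.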

Additional observations from a re-analysis of the deposited data

How the results depend on the processing

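The 18 called integrin and laminin genes were called again under RLE size factors, voom, both other filters and the replicate block, and between 16 and 18 of them when a replicate was left out (6 to 7 higher and 10 to 11 lower). DESeq2 called 17 and library totals alone 17 of them, the latter with LAMB2 in addition. Of 286 alternative values of single genes, 274 kept their direction and their side of the threshold, and the others concern LAMB3, ITGAE, LAMB2 and ITGAV. The log2FC of ITGAV turned positive with library totals (0.0429) and lay between -0.0507 and 0.0524 when a replicate was left out, positive without control replicate 1 or PELP1-KD replicate 2 and never past the threshold. Tested against a log2FC of 1, ITGB3 still passed, LAMA5 and LAMA4 did not, leaving 0 lower members, and 60 genes in all were lower and 63 higher, in place of 171 and 243. At least 10 counts in every replicate left 12237 tested genes in place of 12796. Of these, 106 lower and 134 higher genes had a fold above 2, and the cause of this smaller number was not tested. Focal adhesion genes called higher numbered between 6 and 11 when a replicate was left out. Library totals, which moved the median log2FC of all tested genes from 0.0014 to 0.05, gave 5 lower integrin-associated genes in place of 8, and the cause was not tested. Same-numbered replicates did not deviate together (correlations 0.039, 0.065 and -0.078), and not every replicate correlated best with its own number. With 3 replicates in a group this cannot decide whether the numbers pair the samples. With the replicate block, 11 members were lower and 7 higher, as without it. Over all tested genes it gave 3335 lower and 3140 higher, in place of 3103 and 2904. With the longest transcript as the gene length, the differences in share of ITGA1, ITGA2, ITGAE, ITGB3 and ITGB4 moved beyond the spread between replicates and kept their sign.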
